A study of Homo sapiens with 2 samples.

Results

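The subject is a set of 10 entries of a miRNA count table that were gathered as overlapping fragments of ribosomal RNA (rRNA), transfer RNA (tRNA) or small nucleolar RNA (snoRNA).
They were found by exact name, with or without an arm suffix, from 10 stems, and each stem gave 1 entry, so that they are 10 of the 2904 entries in the table.
The table comes from BEAS-2B, an immortalised human bronchial epithelial cell line labelled wild type. The control group received vehicle and the other group manganese, and both were collected at 24 h. Each of the 2 groups held 1 library, with 1064179 counts in the control and 1091070 with manganese, so every difference given is between a pair of libraries, with no replicate check and no p-value. The manganese dose was not stated in the labels.

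A canonical miRNA is cut from a hairpin transcript by Drosha in the nucleus and by Dicer in the cytoplasm, and it then guides Argonaute proteins through its seed, the bases from position 2 to 8. Abundant RNAs of the translation and splicing machinery are also cut or broken into short pieces, and small RNA libraries capture such pieces along with miRNAs. Where a piece has the sequence of a listed miRNA, its reads are counted under that name, and sequence alone does not tell the sources apart. Ribosomal RNA is made as a long 45S precursor whose spacers are removed, tRNA delivers amino acids, snoRNA guides the modification of other RNAs, and U2 small nuclear RNA (snRNA) recognises the branch site of introns.

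Mature sequences were found in RefSeq (GRCh38.p14) for 6 of the 10 entries. They are shown because the seed and the base composition separate the members, and the seed is in capitals.
hsa-miR-1260b: aUCCCACCacugccaccau
hsa-miR-1260a: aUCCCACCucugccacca
hsa-miR-1246: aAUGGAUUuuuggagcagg
hsa-miR-1291: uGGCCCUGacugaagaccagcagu
hsa-miR-4497: cUCCGGGAcggcugggc
hsa-miR-3648: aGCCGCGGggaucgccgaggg
The 6 sequences held 5 seeds. The seed of miR-1260a and miR-1260b was the same, and the sequences differed by U9A, counted from the 5′ end with miR-1260a as the reference, and by 1 further base at the 3′ end of miR-1260b. The lengths were 17 bases for miR-4497, 18 for miR-1260a, 19 for miR-1260b and miR-1246, 21 for miR-3648 and 24 for miR-1291, beside a median of 22 over the 344 measured entries with a sequence.

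The descriptions of the entries were checked against the annotation, by an exact search of each mature sequence in GENCODE 29 transcripts of rRNA (554), snRNA (1900), snoRNA (1004) and mitochondrial tRNA (22). A match was found for 2 of the 6 sequences, miR-1246 and miR-1291, while 11 of the 2258 other entries with a sequence (0.487%) had one. The sequence of miR-1246 was in 19 of the 90 transcripts named as U2 snRNA or its copies, among them RNU2-1 on chromosome 17. This is an snRNA, a class outside the rRNA, tRNA and snoRNA by which the entries were gathered. The sequence of miR-1291 was in SNORA2C, a snoRNA also called SNORA34, on chromosome 12. Both matches are shown in capitals within their transcripts, with up to 10 bases to each side.
RNU2-1, bases 84 to 122 of 191: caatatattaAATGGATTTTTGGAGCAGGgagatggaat
SNORA2C, bases 1 to 35 of 137: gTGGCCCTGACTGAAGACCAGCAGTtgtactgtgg
Nuclear tRNA sequences and the long rRNA sequences were not used here, so for miR-1260a, miR-1260b, miR-4497 and miR-3648 the lack of a match covers only the transcripts searched.

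Position gave a second check. The hairpins MIR3648-1 (chromosome 21, 8208473 to 8208652) and MIR3687-1 (8208844 to 8208904) both lay inside the RefSeq rRNA gene RNA45SN2 (8205988 to 8219302), in the part ahead of 18S rRNA. They were separated by 191 bases, and 726 bases lay between MIR3687-1 and the start of 18S. A second copy of each, MIR3648-2 (8986999 to 8987178) and MIR3687-2 (8987370 to 8987430), lay in no other annotated gene. MIR1291 (chromosome 12, 48654444 to 48654530) shared 75 of its 87 bases with SNORA2C, within an intron of KANSL2. Thus 4 of the 10 entries had an annotated overlap by sequence or position. For miR-4286, miR-4508, miR-3656 and miR-3687 no mature sequence was at hand, so only their positions were checked. The members called higher or lower below, miR-4286, miR-4497 and miR-4508, were not among the 4.

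**Figure D1:**
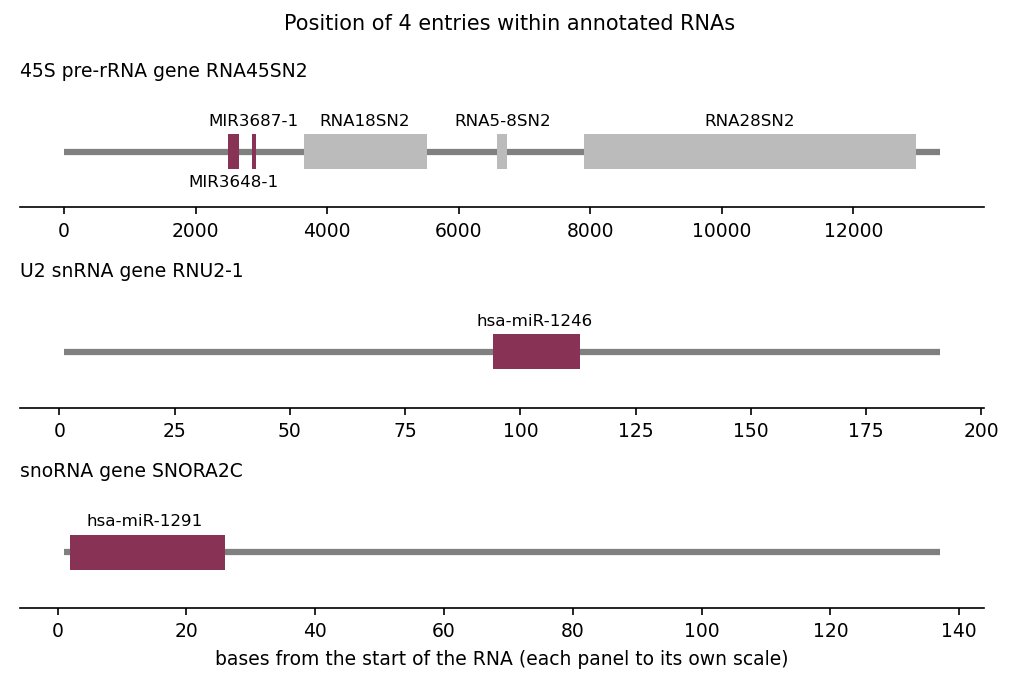
Position of miR-3648, miR-3687, miR-1246 and miR-1291 (dark bars) within annotated RNAs, in bases from the start of each RNA, with each panel to its own scale. MIR3648-1 and MIR3687-1 lie ahead of the 18S, 5.8S and 28S rRNAs (light bars), miR-1246 spans bases 94 to 112 of RNU2-1, and miR-1291 spans bases 2 to 25 of SNORA2C.

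The other hairpins lay apart from annotated genes of these RNA classes in the annotation used. MIR1260B (chromosome 11, 96341438 to 96341526) was opposite a coding exon of MAML2, and MIR1260A (chromosome 14, 77266218 to 77266290) opposite an untranslated part of an NGB exon. MIR4497 (chromosome 12, 109833348 to 109833436) lay partly opposite an untranslated exon part of TRPV4. MIR3656 (chromosome 11, 119018944 to 119019012) lay in a coding exon of TRAPPC4 on the same strand. MIR1246 (chromosome 2, 176600980 to 176601052) and MIR4508 (chromosome 15, 23562062 to 23562131) overlapped no other gene.

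The 10 entries did not move together between the libraries. The most abundant, hsa-miR-4286, was 2.08-fold lower with manganese, hsa-miR-4497 and hsa-miR-4508 were 5.07-fold and 9.38-fold higher from small counts, and hsa-miR-1260b and hsa-miR-1246 differed by less than 2-fold. The other 5 had at most 16 counts over both libraries. Together the entries took 0.0965% of all counts in the control library (95% interval 0.0907 to 0.103) and 0.0606% in the manganese library (0.0561 to 0.0654). All intervals are exact binomial ones and cover counting error only.

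**Figure D2:**
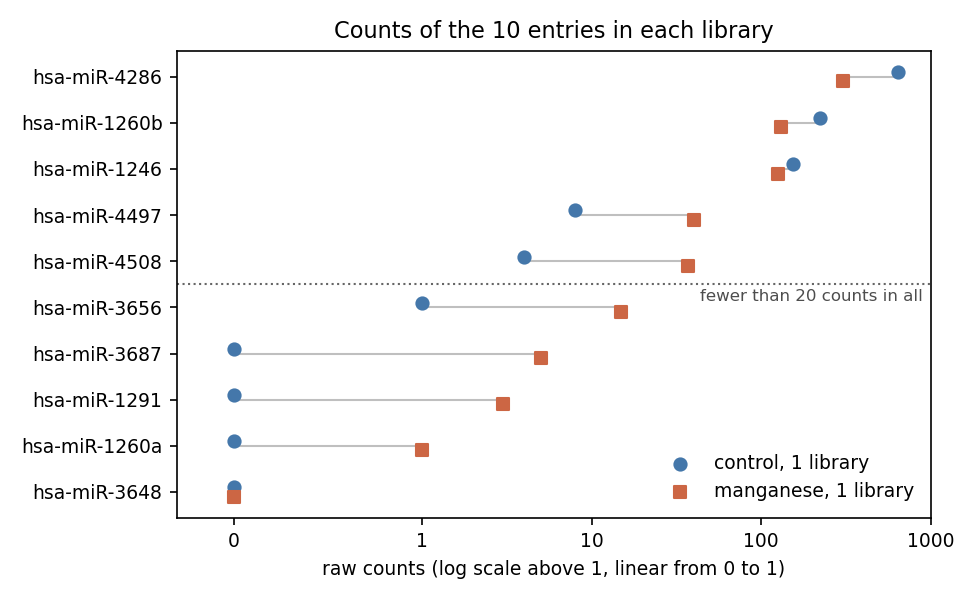
Raw counts of the 10 entries in the control (circles) and manganese (squares) libraries, on a log axis that is linear from 0 to 1. The 3 entries at the top lie to the left in manganese, and the 6 below them with any counts lie to the right, with miR-3648 at 0 in both.

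The count of hsa-miR-4286, whose hairpin lies on chromosome 8 (10666978 to 10667070) opposite an intron of RP1L1, was 638 in the control library and 303 in the manganese library. It ranked 68th among the entries of the control library and 95th in the other. After scaling the libraries with TMM factors it was at 588 and 283 counts per 1000000 of the scaled library size (CPM), which is 2.08-fold lower with manganese (interval from 1.81 to 2.39). The fold was below this in 22 of the 403 measured entries, those with at least 20 counts over both libraries, and in 7 of the 211 with at least 100. With totals that omit the 5 most abundant entries, its fold was 0.548 and no longer reached 2-fold.

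The entry hsa-miR-1260b was counted 221 times in the control library and 131 times in the manganese library. It was at 204 and 122 CPM, 1.66-fold lower with manganese (1.33 to 2.08), short of 2-fold. Its seed mate hsa-miR-1260a had 0 counts and 1 count, at or under the floor of 3 counts used for a count of 0, and no fold is given. The pair shares a seed and all but a few bases, and the labels do not say how reads that fit both were assigned. No other entry with a sequence had this seed.

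Counts of hsa-miR-1246 were 155 and 126, the closest of the 3 abundant entries to equality. It was at 143 and 118 CPM, a fold of 0.825 (0.647 to 1.05) whose interval held 1. In the control the 3 abundant entries were ordered miR-4286, miR-1260b and miR-1246, and each neighbour differed beyond counting error, by 2.89-fold (2.47 to 3.38) and 1.43-fold (1.16 to 1.76). With manganese miR-1260b and miR-1246 did not differ beyond it (1.04-fold, 0.808 to 1.34). These are raw counts of short RNAs, with no correction for length or for how well each is captured.

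The entry hsa-miR-1291, the snoRNA match, was counted 0 and 3 times in the control and manganese libraries, at or under the floor in both. The summed counts of miR-1246 and miR-1291 were 155 and 129, a fold of 0.844 (0.663 to 1.07).

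Of the entries that lay inside the rRNA gene, hsa-miR-3648 had 0 counts in both libraries. The floor of 3 counts stands at 2.76 CPM in the control and 2.80 with manganese. The neighbour of miR-3648, hsa-miR-3687, had 0 and 5 counts. Set against the floor of 3 control counts its fold was 1.69, and a pseudocount of 1 CPM gave 5.67. Neither is a bound, since the lower end of its exact interval was 0.930.

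The entry hsa-miR-4497 was counted 8 times in the control library and 40 times in the manganese library. It was at 7.37 and 37.4 CPM, 5.07-fold higher (2.34 to 12.5), and 23 measured entries had a higher fold. For hsa-miR-4508 the counts were 4 and 37, or 3.69 and 34.6 CPM, 9.38-fold higher (3.37 to 36.2), and 14 measured entries had a higher fold. The 2 entries did not differ from each other in count beyond counting error, with a ratio of 2 (0.536 to 9.08) in the control library and of 1.08 (0.674 to 1.74) in the manganese library. The entry hsa-miR-3656 had 1 and 15 counts, a ratio of 15.2 (2.34 to 641) from a total under the count minimum, and 7.82 with a pseudocount of 1 CPM. Their control counts of 8, 4 and 1 were too low to place the size of the fold more closely.

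**Figure D3:**
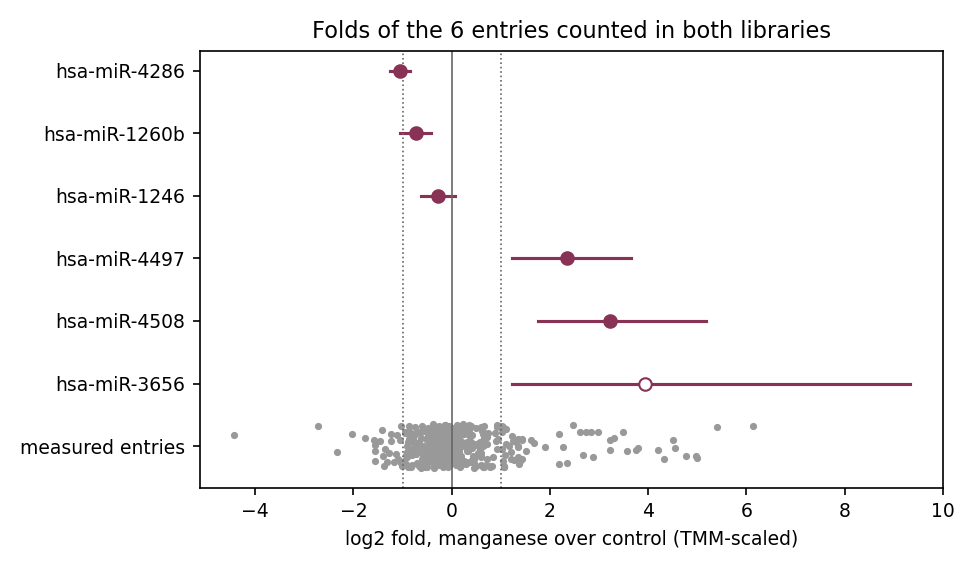
Fold of the 6 entries with counts in both libraries, as log2 of manganese over control after TMM scaling, with exact 95% counting intervals, above the folds of all 403 measured entries (grey, spread vertically for visibility). The open circle has fewer than 20 counts, and dotted lines mark 2-fold. The intervals of miR-4286, miR-1260b and miR-1246 lie apart from those of miR-4497, miR-4508 and miR-3656.

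Of the 10 entries 5 were measured. By a rule of at least 2-fold with an interval that excluded 1, 2 of these 5 were higher with manganese, miR-4497 and miR-4508, where 12.9% of all 403 measured entries were, and 1 was lower, miR-4286, where 6.45% were. The 2 higher entries reached 20 counts only through the manganese library, so that they had to be higher there, and their number supports nothing about the group. Of the 35 measured entries with fewer than 10 control counts, 23 passed the rule as higher. The median log2 fold of the 5 was −0.28, the value of miR-1246, within a range from −1.05 to 3.23, and that of all measured entries was −0.08.

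The sum of all 10 entries came to 1027 in the control library and 661 in the manganese library, 1.53-fold lower (1.39 to 1.69). The largest contribution in each was that of miR-4286, and without it 389 and 358 counts remained, a fold of 0.934 (0.807 to 1.08). The 3 abundant entries held 98.7% of the group's counts in the control library and 84.7% in the manganese library. The 7 others, a division made after the values were seen, had 13 and 101 counts. Of these, 13 and 92 came from miR-4497, miR-4508 and miR-3656. Because the division followed the counts, the direction of this sum supports nothing about the group.

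Base composition differed among the members. The G+C content of the mature sequence was 82.4% in miR-4497 and 81.0% in miR-3648, above 99.1% and 98.8% of the 344 measured entries with a sequence. It was 61.1% in miR-1260a, 58.3% in miR-1291, 57.9% in miR-1260b and 42.1% in miR-1246, beside a median of 47.6% over the measured entries. For miR-4508 the table held the hairpin, shown here because this entry had the highest fold of the 5 measured members. Its G+C content was 80.0%, and 27 of the 1562 hairpins had more. The hairpins of the other members were not compared, so this value does not link G+C content to the fold.
MIR4508, chromosome 15, minus strand, 70 bases: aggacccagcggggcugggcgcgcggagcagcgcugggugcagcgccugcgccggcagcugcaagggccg

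Over all measured entries the fold followed G+C content little (Spearman's rho 0.03 across 344 entries, which share 2 libraries). The median log2 fold lay between −0.16 and −0.09 in each of the 4 bins below 70% G+C, which held from 44 to 109 entries. In the 16 entries at or above 70% it was 0.62 (range −1.56 to 2.34), and 0.58 without miR-4497. With at least 100 counts only 6 entries were left in that bin, with a median of 0.12.

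**Figure D4:**
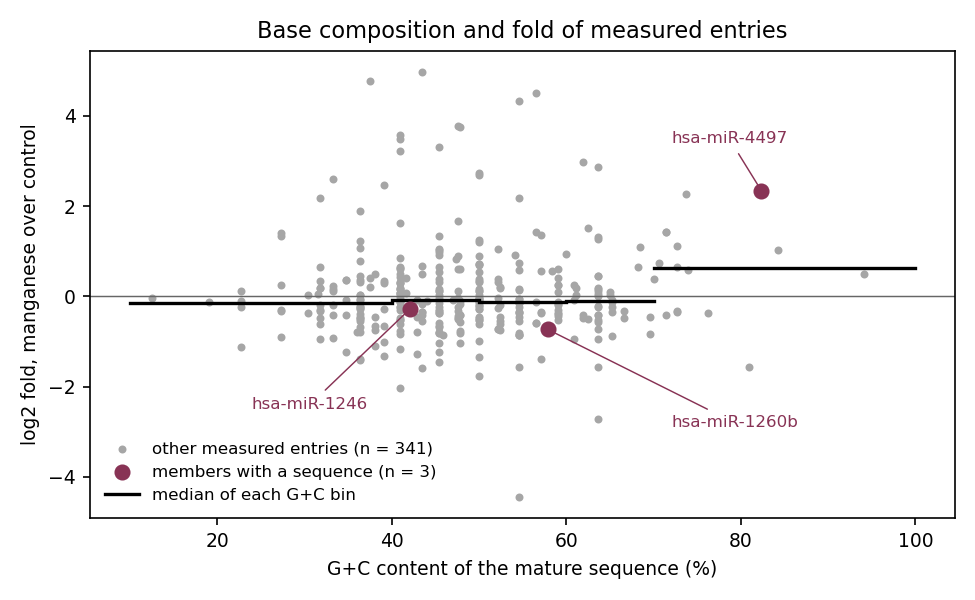
Fold of the 344 measured entries with a mature sequence against the G+C content of that sequence in percent, with the 3 members among them (large points) named. Black lines are the medians of the G+C bins. The member miR-4497, at 82.4%, lies above the line of its bin, and miR-1246 and miR-1260b lie below theirs.

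A wider list of 33 further stems, recalled as overlapping rRNA, tRNA, snoRNA or mitochondrial RNA, was set beside the group. It gave 31 entries from 24 stems, 11 of them measured, and an exact match in the transcripts searched was found for 10 of the 21 with a sequence. By the same rule 1 of the 11 was higher and 0 lower, beside 12.9% and 6.45% of all measured entries, with a median log2 fold of 0.57 (range −0.28 to 2.19). Its 31 entries together had 210 and 288 counts, 1.39-fold higher with manganese (1.16 to 1.67). The summed members were lower, and the difference between these sums was not tested. An exact match was found for 3 of the 11 measured entries, and the others had no match or no sequence. The 9 counted entries with a match held 51 and 70 of the counts (1.39-fold, 0.957 to 2.04), and that interval held 1. The higher entry was miR-6516-3p, which matched the small Cajal body RNA SCARNA16, counted 4 times in the control library and 18 times in the manganese library (4.57-fold, 1.5 to 18.5), and it too was measured only through the manganese library. The 3 most abundant did not pass the rule. They were miR-1275 with 41 and 67 counts (1.66-fold, 1.11 to 2.51), miR-7641 with 29 and 26 (0.910, 0.515 to 1.6) and miR-619-5p with 15 and 22 (1.49-fold, 0.738 to 3.08). The snoRNA-matched miR-664a-3p had 16 and 13 counts, and miR-4485-3p, found in the mitochondrial rRNA MT-RNR2, had 10 and 19.

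Both libraries were checked against cell type markers. The 6 epithelial markers used, the miR-200 family and miR-205-5p, were rare, at 74 counts or fewer each. They had 112 and 224 counts in sum in the control and manganese libraries, 2.03-fold higher with manganese (1.61 to 2.57). Of them, miR-141-3p was at 0 in the control. The miR-183 cluster was not in this list. Of its 5p entries, miR-182-5p had 3066 and 3201 counts, miR-183-5p had 83 and 81, and miR-96-5p had 4 and 22. The 7 blood cell markers had more counts in the manganese library, 9660 against 176525 in sum, most of them miR-486-5p. This list was chosen with earlier results of these data known, so its shared direction supports nothing. Of all 403 measured entries 181 had a fold above 1. For miR-142-3p, with 1 and 4 counts, the interval held 1 (0.402 to 200). So did that of miR-144-3p, with 0 and 4 counts (lower end 0.670). The summed blood cell markers, the summed epithelial markers, and miR-4497, miR-4508 and miR-3656 were all higher in the same library. Of the members, miR-4497 and miR-4508 were measured only through that library. So were the markers miR-142-5p (7 and 42 counts), miR-223-3p (4 and 47) and miR-150-5p (1 and 42). The part of other cells in the members' differences was not tested. With 1 library a group, treatment, culture and library preparation cannot be told apart, nor can fewer cells of a type and less RNA per cell.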

How the data were processed

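Small RNA libraries of BEAS-2B cells, 1 control and 1 manganese, were analysed from the deposited table of whole-number counts per mature miRNA entry. The columns were matched to samples by the names in the labels. The unit was read from the values. Per the submitters' processing notes, the authors used build hg38. For the aligner, the counter, the miRNA annotation and reads with several matches, nothing is given in the sources used here. The other deposited table, of count differences, was not used.

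Library totals were scaled with TMM factors (edgeR 4.0.16, R 4.3.3), 1.02 for the control and 0.981 for manganese. A fold is the ratio of scaled counts, with an exact conditional binomial 95% interval (scipy 1.17.1, numpy 2.4.6, pandas 2.3.3, Python 3.11.15). Shares have exact Clopper-Pearson intervals. Reads carry no stated molecular identifiers, so intervals and floors reflect counting error alone. For a count of 0 the floor was 3 counts, and no fold is given where the other count was also at or under it. Measured entries are those whose counts in both libraries add to at least 20. The interval code was tested on simulated data.

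Mature and hairpin sequences are from RefSeq (GRCh38.p14), hairpin positions from GENCODE 29 (GRCh38) and the position of the 45S gene from RefSeq. Sequences were matched by name. The members, the wider list, the markers and the rules were chosen with earlier results of these data known. Every member is named, and of the wider list the entries passing the 2-fold rule and the 3 most abundant measured ones, while miR-664a-3p and miR-4485-3p were named after their values were seen. Alternatives were other scalings (total counts, DESeq2 1.42.0 size factors, totals that omit the 5 most abundant entries), no filter or at least 100 counts, other fold rules, a pseudocount of 1 CPM, and 1 mismatch in the sequence search.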

Additional observations from a re-analysis of the deposited data

How the results depend on the processing

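No paired analysis was possible because each group held 1 library. Scaling by total counts or by DESeq2 size factors changed no call of a member. With totals that left out the 5 most abundant entries, 0 members were lower, since miR-4286 was at 0.548, where 3.72% of all measured entries were lower and 14.9% higher. The summed fold was then 0.743, and 2 entries of the wider list were higher. With at least 100 counts, 0 members and 0 entries of the wider list were higher, beside 8.06% of the 211 entries, 1 member and 4.74% were lower, and the members' median log2 fold was −0.73, since only 3 members entered. With no filter 3 members were higher, miR-3656 being added, and 2 of the wider list, beside 8.5% of the 965 entries with counts. The median log2 fold of the 7 members with a fold was then 0.76. This is the value of miR-3687 set against the floor. A 1.5-fold rule gave 2 members lower and 2 of the wider list higher, where 14.1% of all measured entries were lower and 15.9% higher. An interval bound of 2-fold gave 0 members lower and 0 of the wider list higher, where 0.993% were lower and 6.45% higher. With a pseudocount of 1 CPM the fold of miR-3656 was 7.82, and that of miR-3687 was 5.67 in place of 1.69 against the floor. The mean log2 fold in place of the median was 0.70. Without miR-4286 the summed fold was 0.934. Without the 5 most abundant entries in the denominator the members' share was 0.240% in the control and 0.178% with manganese. Choosing entries by an exact sequence match, added after the data were seen, gave 12 counted entries, of which 2 were members, and allowing 1 mismatch left the members' matches at 2. No called fold of a member changed direction in these alternatives. Beyond what each alternative itself changes, the cause was not tested. Depth limits the 7 members under 50 counts.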

Other observations

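Besides the members, the exact sequence search found 10 counted entries with a match to another RNA class, 9 of them from the wider list of stems. The other was miR-4284, the most abundant of the 10, whose sequence is in MT-TF, the mitochondrial tRNA for phenylalanine. It was counted 146 times in the control library and 163 times in the manganese library, a fold of 1.13 (0.90 to 1.43). The 10 entries together had 197 and 233 counts, a fold of 1.20 (0.988 to 1.46), and without miR-4284 they had 51 and 70 (1.39, 0.957 to 2.04). Among them miR-3651, found in the snoRNA SNORA84, had 5 counts and 0. Seeds were compared for the 6 members with a sequence and for 2258 other entries. Among these, miR-6775-3p had the seed of miR-1291, with 2 counts and 1, and no other entry outside the members shared a seed with the 6.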
